A study of Mus musculus with 22 samples.

Results

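Homologous recombination mends DNA double-strand breaks by copying an intact sister chromatid. The Fanconi anemia pathway opens crosslinks between the DNA strands and hands the resulting breaks to recombination. The 39 genes described here were chosen by name, 1 table row each, and all 39 were among the 11208 genes of the deposited table of normalized counts. They comprise 5 genes of the BRCA1-PALB2-BRCA2 group, 5 of end resection, 10 of strand exchange, 11 of the Fanconi core and its substrates, 7 of junction dissolution and cleavage, and Polq. In proliferating cells much of this machinery is made around S phase, and genes of DNA replication and repair are known targets of E2F transcription factors, which Rb proteins hold in check in resting cells.

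The cells were NIH/3T3, a mouse embryonic fibroblast line, carrying a stably integrated doxycycline-inducible construct for E2F1 (the E2F1 line) or an empty vector (the EV line). All cells were first held for 48 h in 0.25% serum. The E2F1 line was sampled at 0 h and at 2, 6 and 12 h of doxycycline at 500 ng/ml, the EV line at the same times under the same doxycycline, and the EV line also at 2, 6 and 12 h after 10% serum. This made 11 groups of 2 libraries of polyadenylated RNA, 22 in all, and the serum groups were compared with the same EV 0 h libraries as the EV doxycycline groups. Whether each line is a clone or a pool is not given in the sources used here. No label says that the 2 libraries of a group came from separate cultures, so p-values measure only the spread between these samples, which may be technical.

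Normalized counts summed to between 34014608 and 46057140 per library. All 10 fibroblast markers listed were in the table, none of the listed epithelial, endothelial or muscle markers was, and of 3 leukocyte markers Cd14 alone was present, with 62 to 395 normalized counts. The mouse E2f1 gene stood at 1703 and 1637 normalized counts at 0 h in the E2F1 line. Under doxycycline it had 1535 and 1755 at 2 h, 3806 and 3602 at 6 h, and 2683 and 2845 at 12 h. The 2 h libraries overlapped with those at 0 h. These values need not include RNA of the construct. In the EV line E2f1 had 1635 and 1655 at 0 h and 1345 and 1635 at 12 h of doxycycline. With serum it had 802 and 740 at 2 h, 1186 and 956 at 6 h, and 4615 and 4247 at 12 h. The 12 h serum values lay above every library of the E2F1 line. Ddx3y, a Y-linked gene with 580 and 521 normalized counts in the E2F1 line at 0 h, had 9 and 4 in the EV line at 0 h. It had 103 and 71 in the EV libraries at 2 h of doxycycline and 132 and 170 at 2 h of serum, so these 4 libraries stood apart from the other EV libraries, which had 4 to 48, and the part of this in the results was not tested. Leaving the EV 2 h doxycycline libraries out of the fit changes the pooled spread alone in the other 16 comparisons and leaves their fold changes as they are, and their counts of the 39 genes past the test stayed within 1.5 times.

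Among the 30 genes with a promoter in the RefSeq table, promoters are shown for the 3 with the largest rise at 6 h of E2F1 induction (Fancm, Ube2t, Brca1) and for the 2 nearest to no change then (Fancf, Fanci), since the E2F family binds DNA near gene starts. Each is 300 bases from 250 before to 50 after the start, 5′ to 3′ on the gene's strand, from RefSeq on GRCm38.p6, and capitals mark each match to TTCCCGC or TTGGCGC, the cores of the E2F motif, on either strand.
Fancm, chr12:65075353-65075652, plus strand: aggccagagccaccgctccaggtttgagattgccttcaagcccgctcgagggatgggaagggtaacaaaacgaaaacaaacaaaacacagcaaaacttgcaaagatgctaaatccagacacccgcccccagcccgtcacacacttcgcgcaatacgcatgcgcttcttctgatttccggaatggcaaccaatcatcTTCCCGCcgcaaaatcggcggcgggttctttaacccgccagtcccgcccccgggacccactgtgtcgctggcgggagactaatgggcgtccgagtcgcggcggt
Ube2t, chr1:134962315-134962614, plus strand: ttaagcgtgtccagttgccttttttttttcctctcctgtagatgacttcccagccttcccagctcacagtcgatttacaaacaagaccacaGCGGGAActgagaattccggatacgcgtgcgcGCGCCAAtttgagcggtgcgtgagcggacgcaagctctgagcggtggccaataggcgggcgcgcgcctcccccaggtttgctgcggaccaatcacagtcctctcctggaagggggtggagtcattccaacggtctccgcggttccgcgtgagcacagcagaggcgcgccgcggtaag
Brca1, chr11:101551906-101552205, minus strand: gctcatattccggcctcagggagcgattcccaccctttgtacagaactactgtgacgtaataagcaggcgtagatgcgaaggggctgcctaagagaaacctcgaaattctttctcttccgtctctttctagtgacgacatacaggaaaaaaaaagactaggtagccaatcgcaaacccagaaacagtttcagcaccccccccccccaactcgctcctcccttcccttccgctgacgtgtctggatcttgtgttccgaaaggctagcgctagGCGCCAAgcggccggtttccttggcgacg
Fancf, chr7:51862218-51862517, minus strand: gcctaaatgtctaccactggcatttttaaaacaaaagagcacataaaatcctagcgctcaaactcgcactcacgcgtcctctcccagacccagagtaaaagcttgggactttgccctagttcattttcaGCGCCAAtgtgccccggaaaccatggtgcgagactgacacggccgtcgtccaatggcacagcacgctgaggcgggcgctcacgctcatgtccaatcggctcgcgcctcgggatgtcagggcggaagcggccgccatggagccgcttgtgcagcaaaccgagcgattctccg
Fanci, chr7:79392088-79392387, plus strand: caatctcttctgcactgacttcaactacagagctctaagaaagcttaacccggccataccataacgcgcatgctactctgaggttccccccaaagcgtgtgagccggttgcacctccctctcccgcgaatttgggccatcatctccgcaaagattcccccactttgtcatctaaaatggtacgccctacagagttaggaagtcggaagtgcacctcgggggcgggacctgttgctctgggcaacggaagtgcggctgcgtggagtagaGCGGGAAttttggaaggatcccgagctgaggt
All 5 windows held a core, Ube2t one of each kind, so its presence did not set Fancm, Ube2t and Brca1 apart from Fancf and Fanci. Rbbp8, which rose more than Brca1 at 6 h, and Rad50 and Fancd2, which were nearer to no change than Fanci, are not in that table.

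A core was in 13 of the 30 windows (43.3%): Brca1, Bard1, Brca2, Rad51ap1, Fignl1, Helq, Fancb, Fancf, Fancg, Fancm, Ube2t, Fanci and Polq. It was in 13.3% of the 8609 windows available for genes of the table. The 8-base E2F motifs TTTCCCGC, TTTCGCGC, TTTGCCGC and TTTGGCGC were in 4 of 30 windows (13.3%), those of Bard1, Brca2, Rad51c and Fancg, against 4.54%. The first and last of these 4 motifs contain the cores, so the 2 searches overlap. CCAAT, the box bound by NF-Y, was in 18 of 30 windows (60%) against 39.9%, and TTTGAA, the CHR element of many late cell cycle genes, in 3 of 30 (10%) against 11.6%. Both strands were searched. At 6 h the median log2 change under E2F1 was 1.13 over the 13 genes with a core and 0.56 over the 17 without, and at 12 h it was 2.10 and 1.55. For the 8-base motifs, in only 4 genes, it was 1.15 with and 0.71 without at 6 h, and 1.89 and 1.90 at 12 h. At 12 h it was 1.82 with CCAAT and 2.02 without, and 2.27 with TTTGAA and 1.79 without. These shares describe letters in a window and show neither binding nor a cause.

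Induction of E2F1 was followed by higher RNA of most of these genes. None of the 39 passed the test at 2 h (limma with Benjamini-Hochberg adjustment over all 11208 genes, adjusted p under 0.05), where 0.865% of all genes were higher and 0.99% lower, and 2 rose and 3 fell at an unadjusted p under 0.05. At 6 h, 25 were higher and none lower, against 28.8% and 22.9% of all genes, and 16 rose 2-fold or more, as did 8.64% of all genes. By 12 h the test called 35 higher and none lower, against 31.8% and 29.7%, and 28 rose 2-fold or more (10.6% of all genes). The median log2 change of the 39 genes was 0.83 at 6 h and 1.84 at 12 h, while that of all genes was -0.03 and -0.02. Quantile normalization moved the median change of all genes by -0.12 at 6 h and -0.11 at 12 h, and 26 and 35 of the 39 were then past the test. In bulk RNA, fewer cells making a transcript and less of it per cell cannot be told apart. Changes are differences in log2(normalized count + 1), which slightly understate those of low genes.

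**Figure D1:**
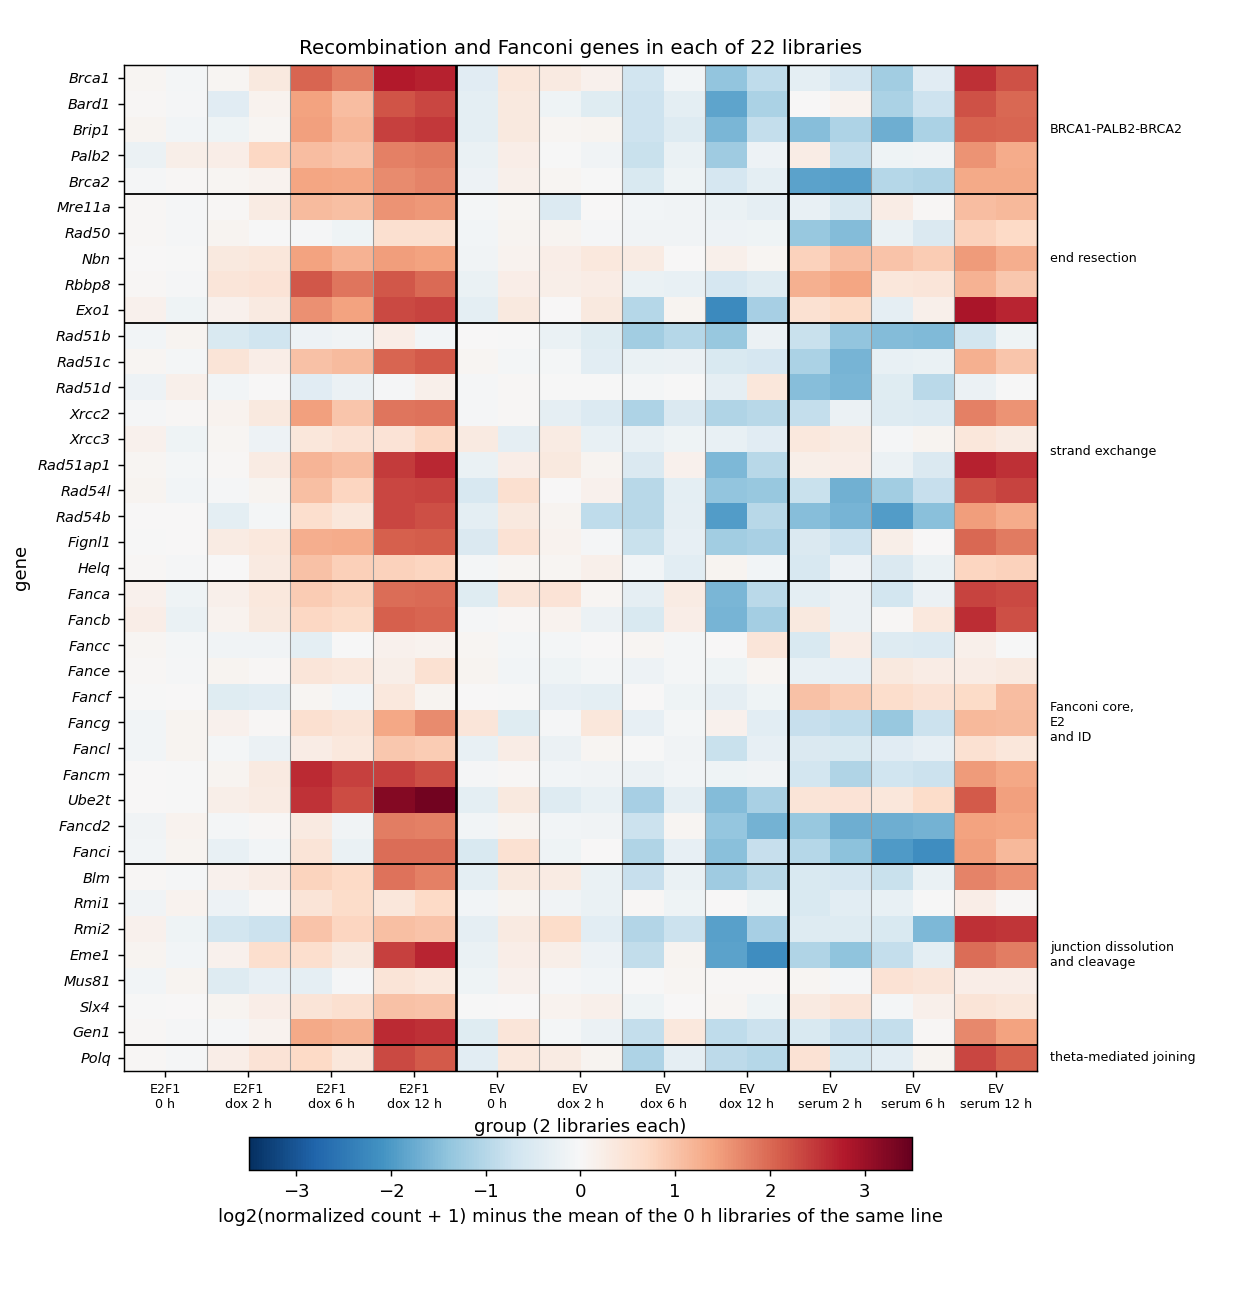
Difference of each library's log2(normalized count + 1) from the mean of the 0 h libraries of its line, for the 39 genes (rows, by role) in 22 libraries (columns, 2 per group). The E2F1 line at 12 h and the EV line at 12 h of serum show rises in most rows (35 and 33 genes past the test), and the EV line at 12 h of doxycycline shows falls (16 past the test).

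All 5 genes of the BRCA1-PALB2-BRCA2 group rose at 6 h and at 12 h. Brca1, the ubiquitin ligase subunit that commits broken ends to recombination, had 1189 and 1073 normalized counts at 0 h, 1176 and 1430 at 2 h, 4633 and 3884 at 6 h, and 7672 and 7363 at 12 h. The 6 h and 12 h libraries did not overlap with those at 0 h, and the log2 change at 12 h was 2.73 (SE 0.26, adjusted p = 7.47e-08, limma). In the EV line Brca1 stood at 427 and 750 at 0 h, 710 and 627 at 2 h, 355 and 530 at 6 h, and 217 and 306 at 12 h of doxycycline. With serum it stood at 444 and 374 at 2 h, 245 and 430 at 6 h, and 3310 and 2650 at 12 h. Only the 12 h serum libraries of the EV line lay above all its other libraries.

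Bard1, the obligate partner of BRCA1, went from 442 and 412 at 0 h to 325 and 468 at 2 h, 1138 and 908 at 6 h, and 1967 and 2173 at 12 h of E2F1 induction. EV libraries held 182 and 288 Bard1 counts at 0 h, 207 and 171 at 2 h, 138 and 180 at 6 h, and 63 and 105 at 12 h of doxycycline. Serum gave 230 and 248 at 2 h, 105 and 137 at 6 h, and 1078 and 925 at 12 h. The 12 h libraries of the E2F1 line lay above every other library. The E2F1 change at 12 h was 2.27 (SE 0.25) and that of serum 2.12 (SE 0.25), both on the log2 scale.

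Brip1, the FANCJ helicase that binds BRCA1, had 578 and 513 normalized counts at 0 h, 494 and 567 at 2 h, 1478 and 1227 at 6 h and 2880 and 3043 at 12 h of E2F1 induction. Its EV values were 233 and 374 at 0 h, 312 and 314 at 2 h, 178 and 215 at 6 h, and 96 and 164 at 12 h of doxycycline. After serum it had 105 and 139 at 2 h, 89 and 137 at 6 h, and 1244 and 1211 at 12 h. The early serum libraries were thus below all EV 0 h libraries, with log2 changes of -1.28 at 2 h (SE 0.25) and -1.41 at 6 h (SE 0.25).

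Brca2, a breast cancer susceptibility gene of this pathway, reached most of its rise by 6 h. Its E2F1 values were 854 and 898 at 0 h, 915 and 962 at 2 h, 2262 and 2251 at 6 h, and 2771 and 2893 at 12 h. The EV line had 556 and 720 at 0 h, 661 and 632 at 2 h, 441 and 568 at 6 h, and 424 and 502 at 12 h of doxycycline. Serum took Brca2 down to 172 and 168 at 2 h and 315 and 306 at 6 h, and up to 1597 and 1578 at 12 h. The 2 h serum change was -1.89 on the log2 scale (SE 0.13, adjusted p = 4.13e-10, limma), and both 2 h libraries lay below every other library of the series.

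Palb2, the bridge between BRCA1 and BRCA2, was low and more scattered. It had 111 and 146 normalized counts at 0 h, 149 and 212 at 2 h, 269 and 256 at 6 h, and 434 and 453 at 12 h of E2F1 induction. EV libraries had 136 and 186 at 0 h, 158 and 147 at 2 h, 92 and 135 at 6 h, 67 and 141 at 12 h of doxycycline, and 189 and 88, 144 and 146, and 478 and 391 at 2, 6 and 12 h of serum. The E2F1 rise was 1.04 at 6 h (SE 0.35, adjusted p = 0.0179, limma) and 1.79 at 12 h (SE 0.35), both on the log2 scale. Without the first library at 0 h, or without either library at 6 h, the 6 h call of Palb2 was lost, with adjusted p from 0.0554 to 0.123 (limma).

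**Figure D2:**
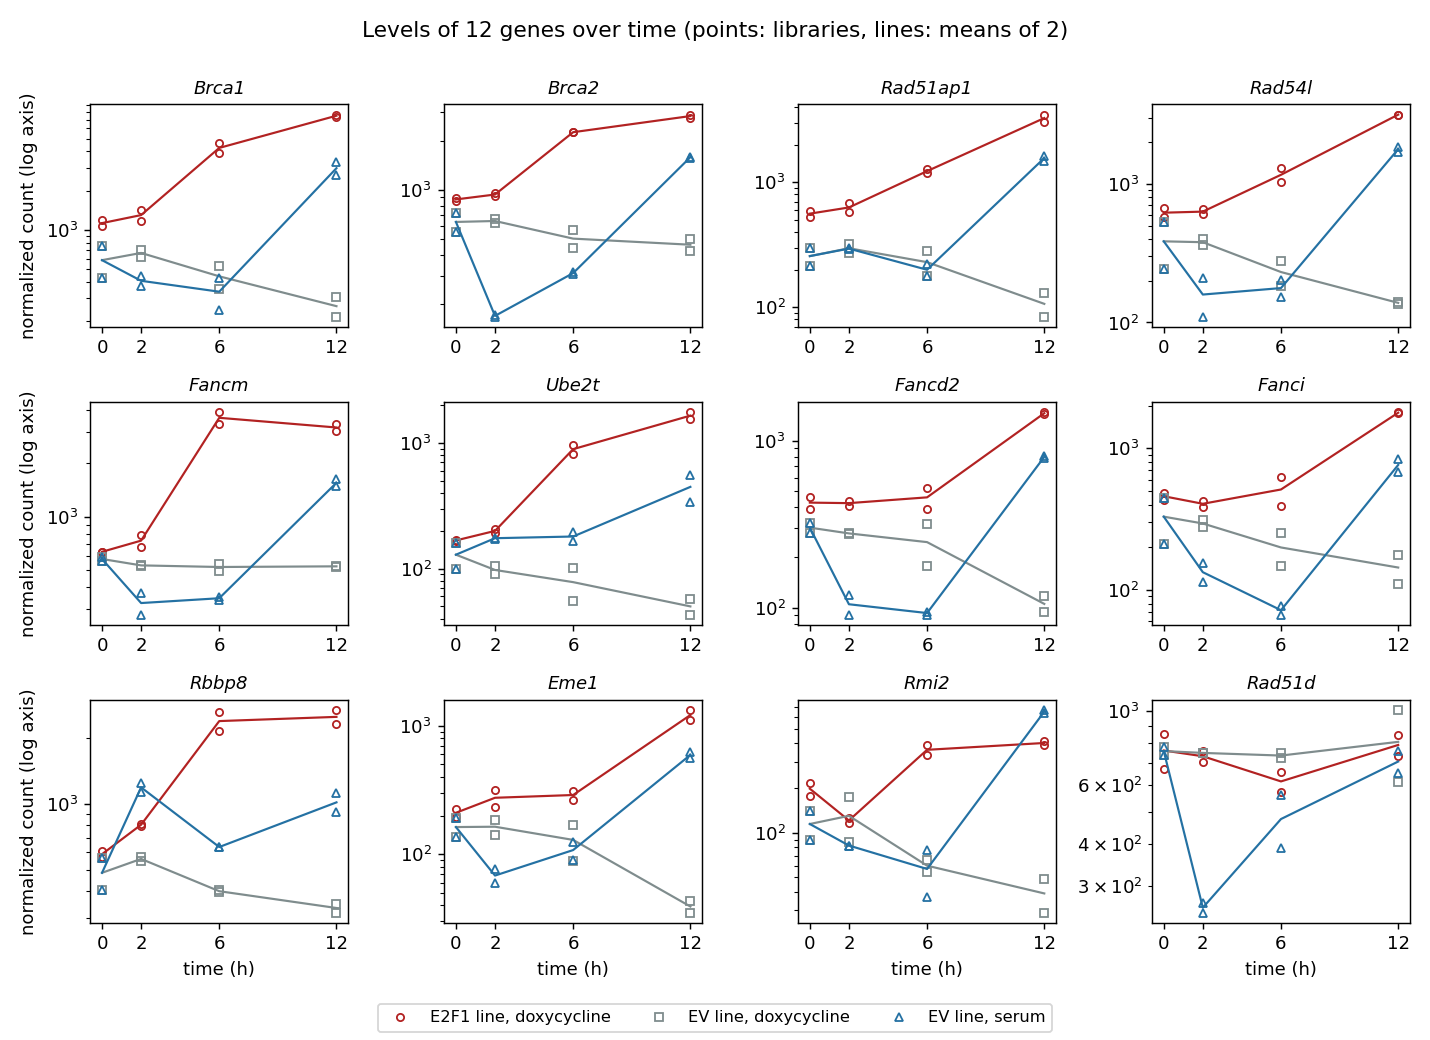
Normalized counts (log axis) of 12 of the genes against time in hours, with a point for each library and a line through the mean of 2, for the E2F1 line with doxycycline, the EV line with doxycycline and the EV line with serum. Brca1 shows the common course, with 7672 and 7363 at 12 h of E2F1 induction, 217 and 306 at 12 h of doxycycline in the EV line and 3310 and 2650 at 12 h of serum.

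Among the end resection genes, whose products trim broken ends to single strands, 4 of 5 rose at 6 h and 5 of 5 at 12 h. Rbbp8, which encodes the nuclease cofactor CtIP, went from 606 and 569 normalized counts at 0 h to 791 and 811 at 2 h, 2630 and 2137 at 6 h, and 2669 and 2314 at 12 h of E2F1 induction. In the EV line it had 403 and 563 at 0 h, 546 and 572 at 2 h, 402 and 394 at 6 h, and 318 and 349 at 12 h of doxycycline. Its serum values were 1125 and 1248 at 2 h, 633 and 634 at 6 h, and 1114 and 913 at 12 h. Rbbp8 thus rose with serum at 2 h, by 1.31 on the log2 scale (SE 0.15, adjusted p = 2.11e-07, limma), when 21 of the 39 genes fell.

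Exo1, a long-range resection exonuclease, had 593 and 476 at 0 h, 589 and 666 at 2 h, 1601 and 1423 at 6 h, and 2619 and 2737 at 12 h of E2F1 induction. Its EV values fell from 219 and 354 at 0 h to 59 and 124 at 12 h of doxycycline, with 282 and 352 at 2 h and 139 and 298 at 6 h. With serum Exo1 had 403 and 444 at 2 h, 225 and 315 at 6 h, and 2041 and 1779 at 12 h. For Exo1 too, both E2F1 libraries at 12 h were above all others. The serum rise at 12 h, 2.77 on the log2 scale (SE 0.32), was the largest of the 39 genes in that comparison.

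Mre11a, the nuclease of the complex that first binds broken ends, had 1129 and 1068 normalized counts at 0 h, 1139 and 1335 at 2 h, 2354 and 2261 at 6 h, and 3251 and 3168 at 12 h of E2F1 induction. EV libraries held 1059 and 1170 at 0 h, 792 and 1118 at 2 h, 1034 and 1022 at 6 h, and 949 and 900 at 12 h of doxycycline. Serum gave 925 and 753 at 2 h, 1322 and 1151 at 6 h, and 2359 and 2442 at 12 h. The level of Mre11a at 12 h of serum was thus close to that at 6 h of E2F1. The partners of MRE11 in that complex followed separate courses. Nbn rose by 1.32 at 6 h (SE 0.13) and 1.44 at 12 h (SE 0.13) on the log2 scale, while Rad50 had -0.09 at 6 h (SE 0.10, not past the test) and rose by 0.56 at 12 h (SE 0.10). With serum at 2 h Nbn rose by 0.95 (SE 0.13) and Rad50 had a change of -1.42 (SE 0.10), past the test in opposite directions.

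Of the 10 strand exchange genes, whose products help a broken end pair with its intact copy, 6 rose at 6 h and 8 at 12 h. Rad51ap1, which promotes the pairing of DNA strands, had 591 and 530 normalized counts at 0 h, 573 and 683 at 2 h, 1272 and 1180 at 6 h, and 3039 and 3475 at 12 h of E2F1 induction. Rad51ap1 in the EV line had 215 and 298 at 0 h, 320 and 273 at 2 h, 177 and 282 at 6 h, and 84 and 129 at 12 h of doxycycline, and 290 and 299, 220 and 179, and 1631 and 1488 at 2, 6 and 12 h of serum. Its log2 change at 12 h was 2.54 with E2F1 (SE 0.22) and 2.62 with serum (SE 0.22).

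Rad54l, a DNA translocase, had 664 and 573 at 0 h, 605 and 654 at 2 h, 1288 and 1032 at 6 h, and 3143 and 3153 at 12 h of E2F1 induction. EV libraries held 241 and 528 at 0 h, 359 and 399 at 2 h, 183 and 279 at 6 h, and 136 and 141 at 12 h of doxycycline, and serum gave 208 and 110, 152 and 202, and 1696 and 1855 at 2, 6 and 12 h. Its 6 h rise, 0.90 on the log2 scale (SE 0.30, adjusted p = 0.0178, limma), was lost without the second library at 0 h (adjusted p = 0.103) or the first at 6 h (adjusted p = 0.126, limma). Its relative Rad54b did not pass the test at 6 h (0.49, SE 0.33) and rose by 2.29 at 12 h (SE 0.33).

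The genes Rad51b, Rad51c, Rad51d, Xrcc2 and Xrcc3 did not move as one. Rad51c rose by 2.08 at 12 h (SE 0.17) and Xrcc2 by 1.89 (SE 0.21), whereas Xrcc3 rose by 0.60 (SE 0.20, adjusted p = 0.0132, limma), all on the log2 scale. Rad51b had 252 and 292 normalized counts at 0 h and 316 and 252 at 12 h, and Rad51d had 672 and 849 at 0 h and 733 and 847 at 12 h. The changes of both were 0.06 (SE 0.29 for Rad51b and 0.19 for Rad51d), and their libraries overlapped. Fignl1, an AAA ATPase, rose by 2.10 at 12 h (SE 0.22), and Helq, a DNA helicase, by 0.93 at 6 h (SE 0.16) and 0.77 at 12 h (SE 0.16).

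In the Fanconi pathway the core complex and its E2 enzyme attach ubiquitin to FANCD2 and FANCI, and 5 of the 11 genes of this group rose at 6 h and 9 at 12 h. Ube2t, the E2 enzyme, had 170 and 165 normalized counts at 0 h, 193 and 206 at 2 h, 967 and 818 at 6 h, and 1550 and 1749 at 12 h of E2F1 induction. Its EV values were 99 and 159 at 0 h, 91 and 104 at 2 h, 55 and 101 at 6 h, and 43 and 57 at 12 h of doxycycline. Serum gave 173 and 176 at 2 h, 165 and 195 at 6 h, and 556 and 338 at 12 h. The E2F1 rise at 12 h, 3.29 on the log2 scale (SE 0.28, adjusted p = 1.99e-08, limma) or 9.78-fold, was the largest of the 39 genes.

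Fancm, the DNA translocase that anchors the core complex at crosslinks, had 636 and 631 at 0 h, 673 and 792 at 2 h, 3875 and 3353 at 6 h, and 3337 and 3035 at 12 h of E2F1 induction. The 6 h change, 2.51 on the log2 scale (SE 0.13, adjusted p = 3.71e-11, limma), was the largest of the 39 at that time. In the EV line Fancm stayed between 496 and 594 over the 8 libraries at 0 h and with doxycycline. With serum it had 371 and 280 at 2 h, 354 and 339 at 6 h, and 1623 and 1484 at 12 h, below EV 0 h at the first 2 times and above it at the third.

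Transcripts of Fancd2 and Fanci, whose proteins the core complex modifies, passed the test at 12 h and not at 6 h. Fancd2 had 389 and 462 normalized counts at 0 h, 407 and 438 at 2 h, 523 and 392 at 6 h, and 1473 and 1442 at 12 h of E2F1 induction. Fanci had 432 and 485 at 0 h, 384 and 427 at 2 h, 630 and 393 at 6 h, and 1772 and 1788 at 12 h. For both, the libraries at 6 h overlapped with those at 0 h, and neither passed the test then (Fancd2 0.09, SE 0.22; Fanci 0.12, SE 0.32, log2 scale). At 12 h Fancd2 had risen by 1.78 (SE 0.22) and Fanci by 1.96 (SE 0.32).

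The EV line held 281 and 322 Fancd2 counts at 0 h, 280 and 277 at 2 h, 178 and 316 at 6 h, and 117 and 94 at 12 h of doxycycline, with 119 and 91, 91 and 95, and 807 and 790 at 2, 6 and 12 h of serum. Fanci had 212 and 446 at 0 h, 277 and 312 at 2 h, 148 and 251 at 6 h, and 111 and 177 at 12 h of doxycycline there. Serum took Fanci to 154 and 113 at 2 h, 77 and 67 at 6 h, and 842 and 682 at 12 h. Its 12 h serum rise of 1.30 (SE 0.32) was not past the test without the first EV 0 h library (0.76, adjusted p = 0.0553, limma).

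Within the core complex, Fanca had 999 and 824 normalized counts at 0 h, 1026 and 1176 at 2 h, 1676 and 1547 at 6 h, and 3525 and 3604 at 12 h of E2F1 induction. EV libraries had 343 and 615 at 0 h, 635 and 482 at 2 h, 368 and 557 at 6 h, 151 and 237 at 12 h of doxycycline, and 363 and 395, 295 and 396, and 2349 and 2280 at 2, 6 and 12 h of serum. Fanca was thus above EV 0 h in both 12 h serum libraries and below it in both 12 h doxycycline libraries. Its 6 h E2F1 rise of 0.83 (SE 0.25) was lost without the second library at 0 h (adjusted p = 0.0868) or the first at 6 h (adjusted p = 0.0615, limma). The other core genes ranged at 12 h from a rise of 2.06 for Fancb (SE 0.26), through 1.51 for Fancg (SE 0.27), 0.91 for the ubiquitin ligase subunit Fancl (SE 0.17) and 0.36 for Fance (SE 0.10), to values not past the test of 0.23 for Fancf (SE 0.14) and 0.14 for Fancc (SE 0.21). Core complex genes of the same protein assembly thus differed widely in size of change.

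All 7 genes of junction dissolution and cleavage, which separate joined DNA molecules at the end of repair, were higher at 12 h, and 5 were at 6 h. Blm, the dissolution helicase, had 809 and 756 normalized counts at 0 h, 863 and 943 at 2 h, 1335 and 1274 at 6 h, and 2949 and 2673 at 12 h of E2F1 induction. EV libraries held 488 and 787 at 0 h, 756 and 532 at 2 h, 353 and 530 at 6 h, and 261 and 314 at 12 h of doxycycline, and 431 and 411, 361 and 527, and 2065 and 1867 at 2, 6 and 12 h of serum. The 6 h rise of Blm, 0.74 on the log2 scale (SE 0.22), was lost without the second library at 0 h (adjusted p = 0.0608) or the first at 6 h (adjusted p = 0.0565, limma).

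The partners of BLM diverged. Rmi2 had 218 and 178 normalized counts at 0 h, 125 and 117 at 2 h, 391 and 333 at 6 h, and 413 and 392 at 12 h of E2F1 induction, against 89 and 140, 174 and 86, 54 and 66, and 29 and 49 at 0, 2, 6 and 12 h in the EV line. With serum it had 82 and 82 at 2 h, 77 and 37 at 6 h, and 668 and 641 at 12 h, the highest libraries of the series for Rmi2. Its E2F1 change at 12 h was 1.03 (SE 0.35, adjusted p = 0.0179, limma), not past the test without the second library at 0 h (0.88, adjusted p = 0.107) or without either 12 h library (adjusted p = 0.0547 and 0.0760, limma). Its 6 h call was lost without any 1 of the 4 libraries compared (adjusted p from 0.0754 to 0.205, limma) and with all libraries brought to equal totals. Rmi1 rose by 0.54 with E2F1 at 12 h (SE 0.15) and had 0.14 with serum (SE 0.15, not past the test).

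The cleavage nuclease genes also had changes of unlike size. Eme1, the partner of MUS81, had 225 and 195 normalized counts at 0 h, 234 and 316 at 2 h, 313 and 265 at 6 h, and 1109 and 1323 at 12 h of E2F1 induction. In the EV line it had 135 and 190 at 0 h, 186 and 141 at 2 h, 88 and 170 at 6 h, and 43 and 35 at 12 h of doxycycline, then 76 and 60, 90 and 125, and 627 and 561 at 2, 6 and 12 h of serum. Mus81 itself had 690 and 786 at 0 h, 543 and 604 at 2 h, 591 and 718 at 6 h, and 1002 and 947 at 12 h of E2F1 induction. Its EV values were 686 and 844 at 0 h, 745 and 715 at 2 h, 760 and 801 at 6 h, 790 and 776 at 12 h of doxycycline, and 798 and 745, 1075 and 1014, and 897 and 886 at 2, 6 and 12 h of serum. The Mus81 libraries of the 6 h serum group were its highest. Eme1 rose by 2.53 on the log2 scale at 12 h (SE 0.29) and Mus81 by 0.40 (SE 0.12). The Mus81 call was lost without the first library at 0 h (adjusted p = 0.0857) or the first at 12 h (adjusted p = 0.0536, limma).

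Gen1, a resolvase of Holliday junctions, had 495 and 460 at 0 h, 463 and 523 at 2 h, 1207 and 1142 at 6 h, and 2930 and 2825 at 12 h of E2F1 induction. EV libraries had 260 and 476 at 0 h, 335 and 308 at 2 h, 198 and 454 at 6 h, and 189 and 210 at 12 h of doxycycline, and 245 and 201, 197 and 364, and 1134 and 936 at 2, 6 and 12 h of serum. Both E2F1 libraries at 12 h lay above every other library for Gen1. Slx4, the scaffold that gathers these nucleases, started at 1774 and 1805 and rose by 1.02 on the log2 scale at 12 h (SE 0.09). Polq, the polymerase of theta-mediated end joining, had 325 and 306 at 0 h, 368 and 437 at 2 h, 509 and 419 at 6 h, and 1561 and 1406 at 12 h of E2F1 induction. In the EV line Polq had 161 and 272, 255 and 222, 99 and 168, and 110 and 104 at 0, 2, 6 and 12 h of doxycycline, and 298 and 137, 161 and 225, and 1069 and 900 at 2, 6 and 12 h of serum. It was not past the test at 6 h of E2F1 (0.55, SE 0.31) and rose at 12 h by 2.23 with E2F1 and 2.22 with serum (SE 0.31 each).

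By timing, the genes are grouped here by the tests they passed under E2F1. From 6 h to 12 h, 24 of the 39 genes rose and none fell, against 15.1% and 20.2% of all genes. At an unadjusted p under 0.05 (limma) 27 rose, among them all 5 of the BRCA1-PALB2-BRCA2 group. A missing call therefore does not show that a gene had stopped rising, as for Exo1, with 1601 and 1423 at 6 h and 2619 and 2737 at 12 h. Higher at 6 h with no further call from 6 h to 12 h were 10 genes, Brca2, Exo1, Fance, Fancm, Helq, Nbn, Palb2, Rbbp8, Rmi1 and Rmi2. Higher at 6 h and higher again at 12 h were 15, among them Brca1, Bard1, Brip1, Rad51ap1 and Ube2t. Not past the test at 6 h and higher at 12 h than at 6 h were 9, Eme1, Fancd2, Fancg, Fanci, Fancl, Mus81, Polq, Rad50 and Rad54b. The shares of all genes in these timing classes were not computed. Whether the split is particular to the 39 genes is therefore not known.

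**Figure D3:**
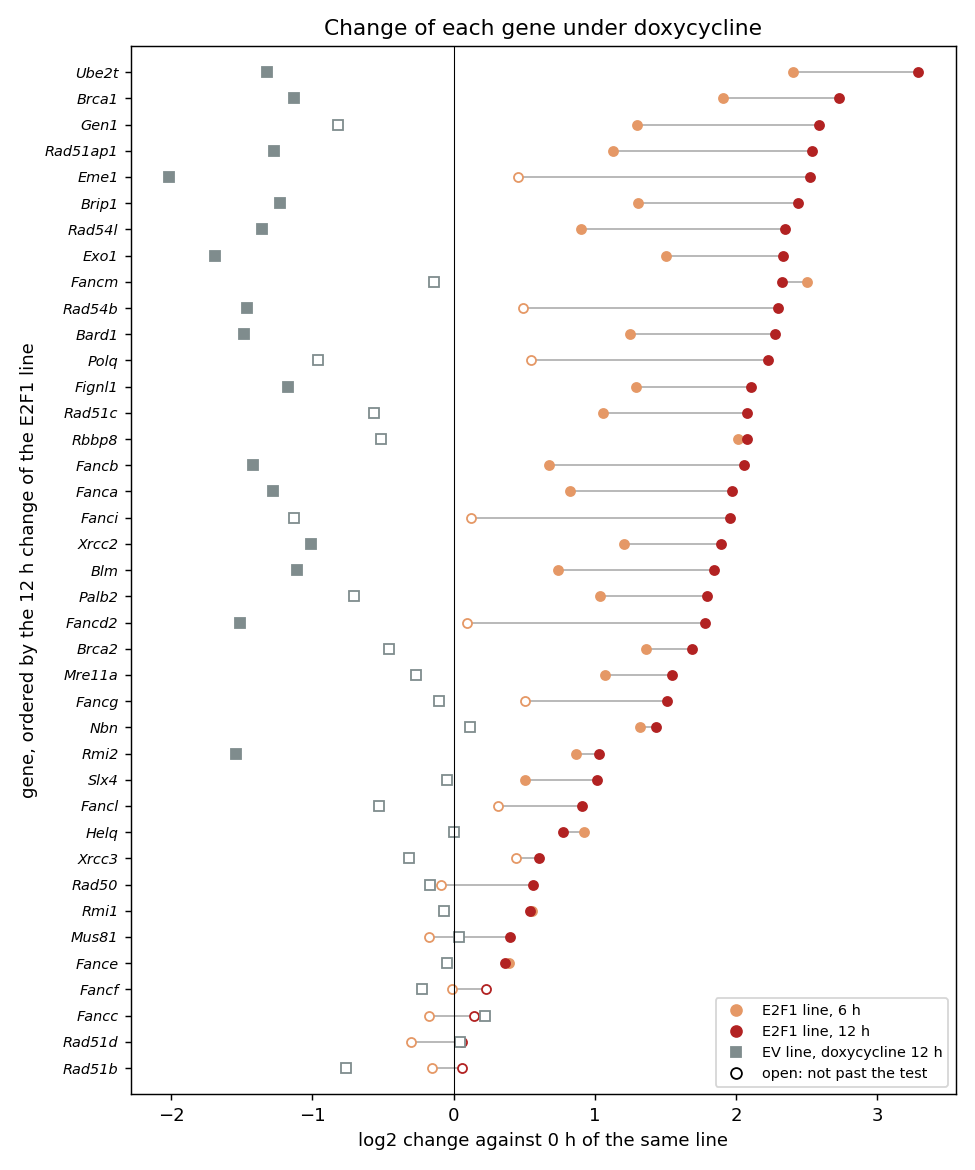
Log2 change of each of the 39 genes against 0 h of the same line, for the E2F1 line at 6 h and 12 h and the EV line at 12 h of doxycycline, ordered by the 12 h change of the E2F1 line. Filled points passed the test (25 at 6 h, 35 at 12 h and 16 in the EV line), and the largest 12 h change is that of Ube2t, 3.29.

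With doxycycline in the EV line, none of these genes passed the test as higher at any time. The EV line was not sampled after 0 h without doxycycline or serum, so doxycycline and time cannot be told apart here. At 2 h none passed in either direction, against 4.93% of all genes higher and 2.43% lower, with 1 rising and 1 falling at an unadjusted p under 0.05 (limma). None passed at 6 h, against 0.134% higher and 0% lower, with 12 falling at an unadjusted p under 0.05. At 12 h, 16 were lower and none higher, against 3.42% and 0.749% of all genes. Eme1 had the largest fall, -2.02 on the log2 scale (SE 0.29, adjusted p = 0.000943, limma), then Exo1 with -1.69 (SE 0.32), Rmi2 with -1.54 (SE 0.35) and Fancd2 with -1.51 (SE 0.22). The other 12 were Bard1, Blm, Brca1, Brip1, Fanca, Fancb, Fignl1, Rad51ap1, Rad54b, Rad54l, Ube2t and Xrcc2.

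The 2 libraries of a group could differ together in these genes. At EV 0 h the second had more than the first in 32 of 39, with a median log2 difference of 0.37, against 0.01 over all genes. Such shifts were not confined to that group: the second library was the higher in 31 genes at 2 h of E2F1, in 30 at 6 h and 27 at 12 h of doxycycline in the EV line, and the lower in 32 at 12 h of serum. Without that second library 2 of the 39 genes were past the test at 12 h of doxycycline, and without the first EV 12 h library 2 were. A fit of just these 2 groups called 1, and without the first EV 0 h library 22 passed. The count of 16 therefore moved with single libraries. The median change of the 39 genes in the main comparison was -0.76, against 0.002 over all genes. That median rests on the same libraries and was not recomputed without any of them.

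The change of the E2F1 line exceeded that of the EV line under the same doxycycline. In the test of that difference no gene passed at 2 h (0.0535% of all genes higher, 0.0892% lower; 3 of the 39 higher and none lower at an unadjusted p under 0.05, limma). At 6 h, 24 of the 39 were higher and none lower, against 22.2% and 12.3% of all genes, with a median difference of 1.17. At 12 h, 34 were higher and none lower, against 27.3% and 23.3%, with 29 of them 2-fold or more (12% of all genes) and a median of 2.59 on the log2 scale. The largest 12 h differences were those of Ube2t, 4.61 (SE 0.40), Eme1, 4.54 (SE 0.41), and Exo1, 4.02 (SE 0.46). These sizes include the fall of the EV line at 12 h of doxycycline, where the median change of the 39 genes was -0.76. Normalized counts there were low, with 43 and 57 for Ube2t, 43 and 35 for Eme1 and 59 and 124 for Exo1. The genes not past that test at 12 h were Fancc, Fancf, Mus81, Rad51b and Rad51d. Comparing the 12 h levels directly, without the 0 h libraries, a comparison added after the data had been seen, found 37 higher in the E2F1 line and none lower, against 36.3% and 32.8% of all genes. The lines also differed at 0 h, where 6 of the 39 were higher in the E2F1 line and none lower, against 8.86% and 6.17%: Bard1, Brca1, Brca2, Brip1, Fanca and Rad51ap1, by 0.47 to 1.14 on the log2 scale. That count was 1 without the first or 2 without the second E2F1 0 h library, 1 without the first and 11 without the second EV 0 h library. The line and the induced protein cannot be told apart in these differences.

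At 2 h and 6 h of serum more of these genes were lower than higher, and at 12 h most were higher. At 2 h, 4 were higher (Fancf, Nbn, Rbbp8, Slx4) and 21 lower, against 37.5% and 33.5% of all genes. At 6 h, 5 were higher (Fance, Fancf, Mus81, Nbn, Rbbp8) and 15 lower, against 36.5% and 31%. Scaling moved these splits. For 2 h of serum, quantile normalization called 8 higher against 12 lower and equal totals 3 against 27. For 6 h, the splits were 6 against 11 and 2 against 24. The lower counts under quantile normalization, 12 and 11 of 39, are no larger shares than the 33.5% and 31% of all genes under the authors' scaling, and the 6 h count of 15 is near that background too. Equal totals moved the median change of all genes by -0.37 at 2 h and -0.21 at 6 h. The largest falls were Brca2 at 2 h and Fanci at 6 h, -2.08 (SE 0.32), and Rad51d had -1.55 at 2 h (SE 0.19). The serum 2 h libraries are among those that stood apart in Ddx3y, and no value at 2 h of serum can be given without them. A fit of just these 2 groups called 13 rather than 20 at 6 h, 10 of them lower, where 67.5% of all genes changed in either direction.

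At 12 h of serum 33 of the 39 genes were higher and none lower, against 36% and 29.7% of all genes, with a median log2 change of 1.38 against 0.05, and 27 rose 2-fold or more (10.3% of all genes). From 6 h to 12 h of serum, 33 rose and none fell, against 19.3% and 20.6%, with a median of 1.94. Against the EV line at 12 h of doxycycline, 34 were higher and none lower, against 37.9% and 32.5%, with a median of 2.14. The BRCA1-PALB2-BRCA2 and resection groups rose whole, 5 of 5 each. Higher too were 7 of 10 strand exchange genes, 10 of 11 Fanconi genes, 5 of 7 junction genes and Polq. All 16 genes that were lower at 12 h of doxycycline in the EV line were among the 33, and both comparisons use the EV 0 h libraries.

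**Figure D4:**
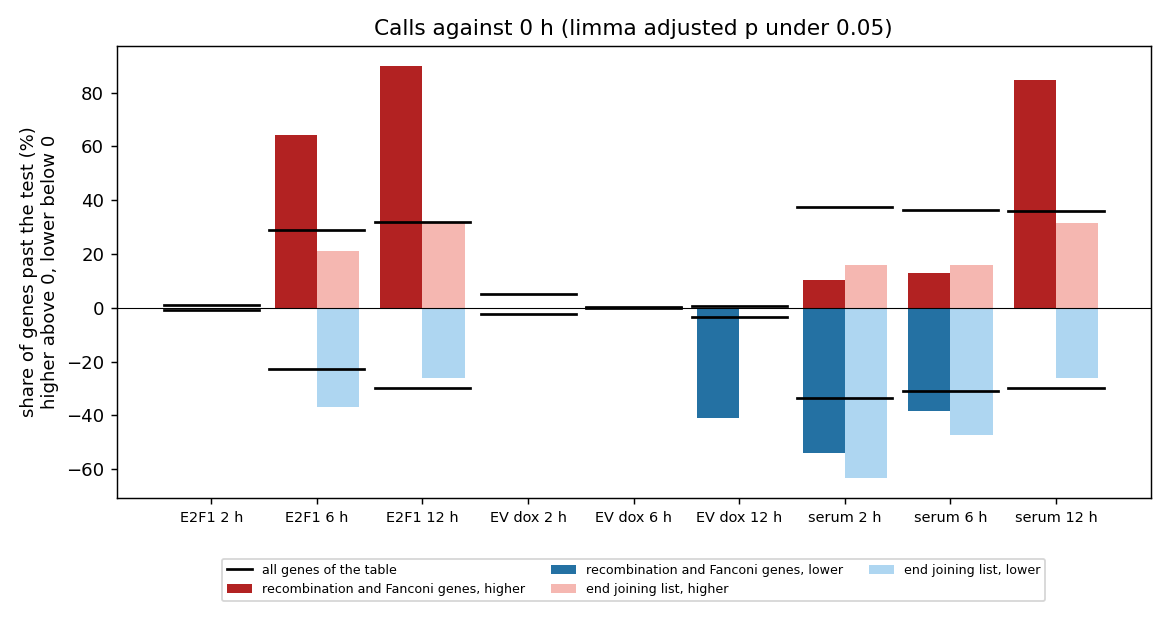
Share of genes past the test against 0 h in each of 9 comparisons (percent, higher above and lower below the line), for the 39 genes, the end joining list and, as black lines, all genes of the table. The 39 genes stand at 35 higher and 0 lower at 12 h of E2F1 and 33 and 0 at 12 h of serum, and at 4 higher and 21 lower at 2 h of serum.

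Most of the same genes rose at 12 h of E2F1 and of serum, which share no library. Higher in both were 32, of 35 with E2F1 and 33 with serum, against 31.8% and 36% of all genes in each comparison taken by itself. The share of all genes higher in both was not computed. With 35 and 33 of the 39 genes called, most had to be in both. The count of 32 therefore does not by itself show a link between the responses. Mus81, Rmi1 and Xrcc3 passed the test with E2F1 and not with serum, though for none of them did the difference of the changes pass. Fancf passed with serum and not with E2F1, and Fancc, Rad51b and Rad51d with neither. Over the 39 genes the changes had a Pearson r of 0.81 and a Spearman rho of 0.79, a description across genes, which are not replicates. The difference of the changes passed the test in 7 genes at 12 h, 5 larger with E2F1 and 2 larger with serum, against 25% and 23.8% of all genes (48.8% in either direction). Ube2t exceeded its serum change by 1.51 on the log2 scale, Rbbp8 by 1.00, Rad51c by 0.98, Fancm by 0.90 and Slx4 by 0.59. Fancf had -0.65 and Rmi2 -1.51, and the Rmi2 difference was lost without the first E2F1 0 h library (adjusted p = 0.0657) or the first EV 0 h library (adjusted p = 0.0865, limma). Without the first EV 0 h library 11 genes passed.

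At 6 h more of the differences passed the test: 29 genes were higher with E2F1 and 2 lower (Fancf and Mus81), against 30.3% and 27.6% (57.9% in either direction), with a median of 1.30. The largest was that of Fancm, 3.24 (SE 0.18), then Brip1, 2.72 (SE 0.35), and Brca1, 2.71 (SE 0.37). Of the 35 genes that were higher at 12 h of E2F1, 13 were lower at 6 h of serum, where 31% of all genes were lower. This count is thus near the background. Compared directly as levels at 12 h, an addition made after the data had been seen, 23 genes were higher with E2F1 and 1, Fancf, was lower than with serum, against 33.4% and 30.4% of all genes, with a median difference of 0.62. The largest level differences were 1.92 for Ube2t, 1.48 for Gen1, 1.34 for Brca1 and 1.30 for Rbbp8. These comparisons differ in cell line as well as in treatment, and the 2 cannot be told apart.

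**Figure D5:**
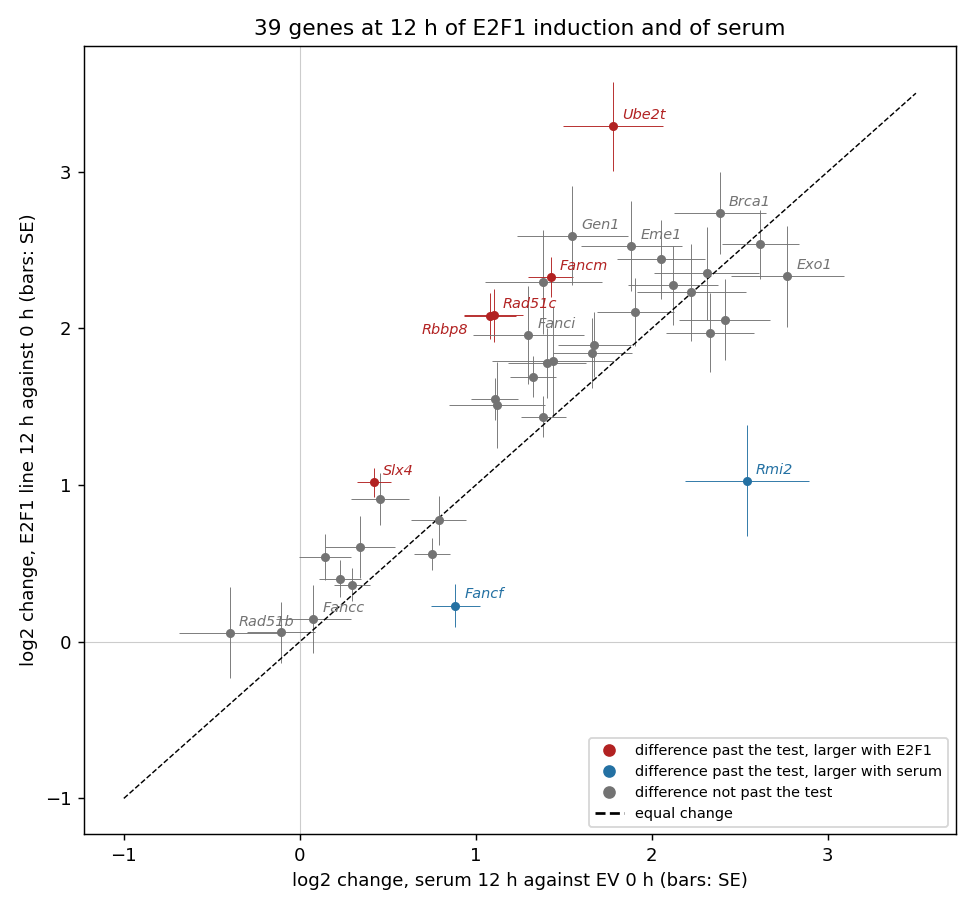
Log2 change at 12 h of E2F1 induction (vertical) against that at 12 h of serum (horizontal) for the 39 genes, with SE bars and a dashed line of equal change. The 7 coloured genes passed the test of the difference: Ube2t, Rbbp8, Rad51c, Fancm and Slx4 lie above the line and Fancf and Rmi2 below it.

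Over the 11 groups, the highest mean was that of E2F1 at 12 h for 29 of the 39 genes, of E2F1 at 6 h for Fancm, Helq and Rmi1, and of serum at 12 h for Fancb, Rad50 and Rmi2. The lowest mean was that of the EV line at 12 h of doxycycline for 18 genes, of serum at 2 h for 9 and of serum at 6 h for 8. The ratio of highest to lowest group mean ran from 1.5 for Fance to 33.0 for Ube2t, with Eme1 at 31.2, Rad51ap1 at 30.6, Exo1 at 29.3 and Brca1 at 28.7. Per kilobase of exon sequence, the level at 12 h of E2F1 was highest for Brca1, 881 normalized counts per kb, followed by Fignl1 with 693, Rad51ap1 with 677 and Nbn with 642. It was lowest for Fancc with 39.8 and Palb2 with 60.4. At EV 0 h the order began instead with Fance, 430 per kb, Rad50, 327, and Fancf, 299.

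Exons of 19 of the 39 genes overlap exons of another gene in the GENCODE annotation of GRCm38, such as Fancd2 with Fancd2os, Fanci with Polg, Eme1 with Lrrc59 and Mrpl27, Mus81 with Efemp2, Fancf with Gas2, and, on the same strand, Rad54b with Fsbp. Whether the counting used strand is not given in the sources used here, so the values of these genes are uncertain by the reads they share. Among the genes without such overlap, Brca1 lies at chr11:101488764-101551955 on the minus strand, Ube2t at chr1:134962565-134974162 on the plus strand and Exo1 at chr1:175880581-175913489 on the plus strand.

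Related lists were set against the same background at 12 h of E2F1, 31.8% of all genes higher and 29.7% lower. Of 38 other recombination and crosslink repair genes, 24 were higher and 1 lower, with a median log2 change of 0.80. Dna2, a resection nuclease and helicase, rose by 4.76 (SE 0.32) and Ddx11, a helicase of replication forks, by 2.31 (SE 0.17), while Rad52, the annealing protein, had -0.55 (SE 0.13). Of 19 genes of end joining and the 53BP1-shieldin pathway, which compete with recombination for broken ends, 6 were higher and 5 lower, shares close to those of all genes, with a median of 0.03. In that list Paxip1 rose by 1.74 (SE 0.08) and Rif1 by 1.34 (SE 0.11), while Prkdc, the DNA-dependent kinase, had -0.82 (SE 0.13) and Trp53bp1, which encodes 53BP1, -0.76 (SE 0.10). Of 18 break signalling genes, 14 were higher and 2 lower, with a median of 0.77. There the checkpoint kinase Chek2 rose by 2.06 (SE 0.25) and the ubiquitin ligase Rnf168 by 1.94 (SE 0.11), with changes of -1.17 for Kdm4a (SE 0.09) and -0.27 for Kat5 (SE 0.10).

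The authors' deposited tables list only genes with a log2 fold change of at least 2 in size and an adjusted p of at most 0.05. Their table of E2F1 at 12 h lists 16 of the 39 genes among 510, with Ube2t at a log2 fold change of 3.30 and Brca1 at 2.74 in the authors' deposited table. The authors' deposited table of E2F1 at 6 h lists Fancm, Ube2t and Rbbp8 among 264 genes, and that of serum at 12 h lists 10 of the 39 among 726. Of the EV line at 12 h of doxycycline, the authors' deposited table holds 4 genes, and Eme1 is one of them, at -2.05. Fanci is the single member listed for serum at 6 h, at -2.08 in the authors' deposited table, and none is listed for 2 h in any of the 3 series.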

How the data were processed

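The deposited table holds normalized counts of 22 libraries rounded to whole numbers by the authors, treated here as a score, not as raw counts; read depth per library is therefore unknown, and no count model was run. Per the submitters' processing notes the tools were FastQC, Trimmomatic, HISAT2, featureCounts and DESeq2 with mm10, with no versions or settings given. The authors' deposited tables of 9 comparisons give log2 fold changes and adjusted p-values of listed genes only. From the table, log2(value + 1) of all 11208 genes was fitted in limma 3.58.1 (R 4.3.3) with a mean per group over all 22 libraries, 11 residual degrees of freedom and a mean-variance trend. P-values are two-sided, with Benjamini-Hochberg adjustment over all genes and a threshold of 0.05. Differences between the changes of lines or treatments were tested as interaction terms. Other differences, such as those of the lines at 0 h, were contrasts between group means. There were 18 comparisons in all.

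The 39 genes, the related lists and the tests were chosen with earlier results of these data known. Values in every library are given for 19 genes chosen by role and for the 3 largest changes past the test in each of 6 main comparisons, and promoters for the largest and smallest 6 h changes among the 30 genes with a RefSeq promoter. Gene positions are from GENCODE M21 (10977 of 11208 identifiers matched with version) and promoters from RefSeq. Simulated data covered E2F1 at 12 h against 0 h over 11208 genes. Of 100 genes changed by 1 on the log2 scale, 79 were called in the right direction, as were 98 of 100 changed by 2. There were 9 false calls. The simulation changed only 200 genes and drew noise independently for each gene. It therefore does not give the error rate where genes shift together between libraries. Alternatives were another pseudocount, a filter on the mean, other scalings, a replicate block, only the groups compared and each library left out.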

Additional observations from a re-analysis of the deposited data

Results flagged for a closer look

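The changes of lines and treatments differed by a test of the difference itself (limma interaction terms, adjusted p under 0.05). Between the E2F1 and EV lines under doxycycline 24 of the 39 genes differed at 6 h and 34 at 12 h. Between E2F1 and serum 31 differed at 6 h, where the background over all genes was 57.9%. Only 7 did so at 12 h, against a background of 48.8%. In this test a smaller share of the 39 genes than of all genes thus differed at 12 h. The test uses the EV 0 h libraries, of which the second exceeded the first in 32 of the 39 genes. Levels at 12 h compared directly had 23 genes higher with E2F1 and 1 lower, against 33.4% and 30.4% of all genes. In log2 units, E2F1 change minus serum change at 12 h, the 7 genes were Ube2t with 1.51 (adjusted p = 0.00458, limma), Rbbp8 with 1.00 (adjusted p = 0.000613), Rad51c with 0.98 (adjusted p = 0.00247), Fancm with 0.90 (adjusted p = 0.000491), Slx4 with 0.59 (adjusted p = 0.00132), Fancf with -0.65 (adjusted p = 0.0101) and Rmi2 with -1.51 (adjusted p = 0.0183, limma). Each of these differences also spans 2 cell lines.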

How the results depend on the processing

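Of 105 changes of single genes that were recomputed, 80 kept their direction and their side of the threshold in every alternative run. A mean of at least 500 left 24 of the 39 genes, and so fewer were past the test: 22 and 14 for E2F1 at 12 h against 0 h and 6 h, 9 for the EV line at 12 h of doxycycline, 21, 20 and 21 for serum at 12 h against 0 h, 6 h and the EV line at 12 h of doxycycline, 21 for E2F1 minus EV at 12 h, and 20 and 4 for E2F1 minus serum at 6 h and 12 h. With only the groups compared, 1 passed for the EV line at 12 h of doxycycline, 13 for serum at 6 h and 1 for the E2F1 against the EV line at 0 h; the cause was not tested. Levels at 12 h compared directly gave 24 for E2F1 against serum.

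Leaving out 1 library gave 1 to 11 for the lines at 0 h, 0 to 1 and 2 to 22 for the EV line at 6 h and 12 h of doxycycline, 6 to 11 for E2F1 minus serum at 12 h, 31 to 33 for E2F1 at 12 h, 19 to 22 at 6 h and 32 to 34 for E2F1 minus EV at 12 h. Signs turned only for changes not past the test. Fancd2 at 6 h of E2F1 ran from -0.11 to 0.30 and was -0.0218 with equal totals, and Fanci ran from -0.22 to 0.46. For E2F1 minus serum at 12 h, Rad54l ran from -0.52 to 0.60, Polq from -0.37 to 0.38 (-0.0554 with quantile normalization), Rad51ap1 from -0.32 to 0.15, Fanca from -0.78 to 0.0626, Brca1 from -0.0581 to 0.75, Bard1 from -0.18 to 0.48 and Blm from -0.16 to 0.52.

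With the replicate number as a block, 35 genes passed for E2F1 at 12 h, 25 at 6 h and 18 for the EV line at 12 h of doxycycline, no count moved by over 1.5 times, and of single changes Gen1 in E2F1 minus serum at 12 h alone came past the test (1.04, adjusted p = 0.0495, limma). Mre11a in that comparison came past it with quantile normalization (adjusted p = 0.0459), equal totals (0.0481), only the groups compared (0.0196) and the EV 2 h doxycycline libraries left out (0.0261, limma). Whether the replicate numbers pair the libraries was not settled. Over 55 pairs of groups the correlation of the 2 libraries' differences had a median of 0.03, from -0.28 to 0.45, and 18 were over 0.1. A median over all pairs cannot show whether libraries were paired within a single series. The 7-base cores raised the share of promoters with an E2F motif from 13.3% to 43.3%. With no raw counts, no interval for counting error could be given.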
